A study of Mus with 4 samples.

Results

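Rab GTPases are molecular switches that mark the membranes of the cell and direct how vesicles bud, move and fuse. Guanine nucleotide exchange factors, among them the Dennd proteins, load a Rab with GTP, and GTPase-activating proteins, among them most Tbc1d proteins, switch it off again. Vps proteins build the tethering, sorting and membrane-remodelling complexes of the endosome, and sorting nexins (Snx) bind endosomal phosphoinositides and bend or sort the membrane. The eye depends on this traffic: in humans, loss of RAB3GAP1, RAB3GAP2 or TBC1D20 causes Warburg Micro syndrome with congenital cataract, loss of VPS13B causes Cohen syndrome with retinal dystrophy, and loss of RAB28 causes cone-rod dystrophy.

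The circular RNAs of these genes are described here. A circular RNA (circRNA) is a closed RNA ring in which a splice donor has joined an upstream acceptor, and reads across that back-spliced junction count it. Members were the circRNAs with a single host gene whose symbol starts with Rab, Tbc1d, Dennd, Vps or Snx directly followed by a digit, together with Eipr1, a protein that binds the endosome-associated recycling protein (EARP) complex. They came to 1065 of 44073 circRNAs and 114 of 7140 host genes. Of 181 protein-coding genes in the RefSeq table that meet the rule on symbols, 21 of 59 Rab GTPases, 8 of 10 Rab regulators, 26 of 30 Tbc1d, 14 of 16 Dennd, 25 of 35 Vps and 18 of 30 Snx genes hosted a circRNA. Rab10os, a non-coding gene on the strand opposite Rab10, was the remaining host and met the rule by its symbol alone.

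Ocular tissue of C57BL/6J mice was taken from wild-type pups or pups with a VLDLR deletion, the very-low-density lipoprotein receptor. All pups had been kept in 75% oxygen from postnatal day 7 to 12, a protocol of hyperoxia followed by return to air. Tissue was collected at postnatal day 12 (P12), as the pups went back to room air, or at day 13 (P13). The 4 groups, each genotype at each day, held 1 library each, and the labels do not give the number of animals per library or the cells in which the deletion acts. Ribosomal and linear RNA had been removed from total RNA before sequencing.

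Junction reads came to 662811 and 759063 in P12 and P13 wild type and to 299723 and 341873 in P12 and P13 deletion tissue. The read names place both wild-type libraries on 1 instrument run and both deletion libraries on another, so genotype and run cannot be told apart, and neither can day and return to air. Vldlr had 0 junction reads in every library, so the targeted gene gave no check of the labels. In a bulk sample, fewer cells of a type and less RNA per cell cannot be told apart either. Circles from photoreceptor genes (14 of 19 markers listed, Nrl and Gnat1 among those at 0) summed to 6911 and 8064 CPM (junction reads scaled to the effective library size by the TMM method) in P12 and P13 wild type and to 10225 and 9902 in the deletion. Those of lens genes (8 of 10 listed, Mip and Lim2 at 0) summed to 889 and 1105 against 2760 and 2050, although of 4 tested lens genes 1 rose and 2 fell, with a median log2 fold change of -0.30. Those of bipolar cell genes (6 of 7 listed) summed to 597 and 589 against 1006 and 731. Pigment epithelium and melanocyte genes (8 of 9 listed, Best1 at 0) gave 125 and 142 against 244 and 235, and striated muscle genes (6 of 9 listed) 2192 and 2263 against 2419 and 2892. The remaining markers were scarce, with endothelial genes (5 of 6 listed) at 78.6, 115, 85.1 and 94.6, Müller glia genes (3 of 5) at 24.1, 8.43, 18.5 and 29.4 and leukocyte genes (1 of 5) at 0, 0, 11.1 and 9.79 wild-type P12 first, then P13, then the same days of the deletion. All genotype values below moved beside these sums, whose part in them was not tested.

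Trafficking genes took 15932 and 18447 junction reads in P12 and P13 wild type, which was 2.40% and 2.43% of each library, and 6335 and 7066 in P12 and P13 deletion tissue, which was 2.11% and 2.07%. These sums include Eipr1, which joined the members with its values known. Without it the reads were 15471 and 17905 against 6289 and 7022, or 24813 and 25163 CPM against 23265 and 22917. The tables listed 733 and 803 member circRNAs in the wild-type libraries and 436 and 492 in the shallower deletion libraries. Of the 1065 circRNAs, 530 were listed in both genotypes, 453 in wild type alone and 82 in the deletion alone. Over all genes, P12 and P13 wild type listed 28563 and 31208 circRNAs, and the deletion listed 18022 and 20129. The shares of all circRNAs listed in 1 genotype alone were not computed, so these counts are not read as a trait of the members. The 280 that were listed in every library carried 85.2% of the member reads, against 87.0% for the circRNAs of all hosts.

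Exonic circles made up 93.0% of member circRNAs and 97.9% of their reads, against 91.6% and 95.6% over all circRNAs with 1 named host. The median distance between the back-spliced ends was 14163 bases on the genome, against 10702 bases over all, and the 10th to 90th percentile ran from 2224 to 60977 bases. A member host had a median of 4 circRNAs, against 3 over all hosts, and 20 member hosts had 1.

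Reads were concentrated in a few hosts, with a median of 95 reads per host over the 4 libraries and a range of 2 to 6878. Tbc1d14, which acts on Rab11-positive recycling endosomes and in autophagosome formation, led with 6878 reads over 32 circRNAs, and 1 circle took 57.1% of them. Dennd1b, an exchange factor for Rab35, followed with 5787 reads over 43 circRNAs, of which the most abundant held 30.4%. Vps50, the subunit that distinguishes the EARP complex from the related Golgi-associated GARP complex, had 2991 reads over 38 circRNAs. Vps13b, a lipid transfer protein at the Golgi, had the most circRNAs of any member, 65 circles that shared 2432 reads, and its most abundant one held 16.0%.

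The next hosts were Tbc1d8 with 1705 reads, Tbc1d5, a Rab7 GTPase-activating protein that binds retromer, with 1502, and Dennd1a, a Rab35 exchange factor, with 1451. Tbc1d32, a protein needed for cilia and Hedgehog signalling, had 1360 reads, Snx13 had 1196 and Eipr1 had 1093. Among small hosts, Rab4a was listed in wild type alone (5 and 2 reads), and Rab43 in the deletion alone (2 and 2 reads).

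The circles of 1 host reused the same splice ends in many combinations. Of the 32 Tbc1d14 circles, all began at 1 of 9 positions and ended at 1 of 9. The 65 circles of Vps13b used 30 starts and 24 ends, and the 43 of Dennd1b used 14 starts and 10 ends, with 50.1% of the Dennd1b reads on a single end. Eipr1 was the most uniform of the 10 hosts with most reads, with 98.4% of its reads on 1 end and 88.5% in 1 circle, and Snx13 had 76.2% of its reads on 1 start. Below these 10, Snx12 had 99.5% of 925 reads in 1 circle and Rab3gap2 had 92.4% of 895.

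Deletion and wild type were compared over both days on junction reads summed per host, with a term for day. With 1 library per group this fit has 1 residual degree of freedom, set by how far the genotype difference changed between days. The variance was pooled over all tested hosts, and this pooled value outweighed the libraries of any single host. Each p-value and standard error below therefore rests mainly on the pooled spread, which may be technical. No group had a second library to measure its own spread. Of 113 member hosts other than Eipr1, 78 had at least 10 reads in at least 2 libraries and were tested. The quasi-likelihood test of edgeR, adjusted by Benjamini-Hochberg over all hosts, was read at 0.05, and by it 7 rose in the deletion and 15 fell. That is 28.2% of the tested members, where 14.1% of all 3896 tested hosts were called. The higher share was 9.0% of members against 7.49% of all hosts, and the lower share was 19.2% against 6.6%. Whether these shares differ was not tested. Eipr1 joined the members with its values known, so it stands outside these counts and is given without a test.

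The median log2 fold change was -0.41 over the 78 tested members and -0.05 over all tested hosts, and 51 of the 78 were below 0, against 52.8% of all tested hosts. The filter let 9 hosts with under 10 reads in both deletion libraries pass through wild type alone. These 9 were not taken out of the median or of the count below 0. Of these Snx19 is among the 15 that fell, and 14 are left without it. The scale matters for the sign. Scaled by the deposited SRPBM constants, the median log2 fold change of all hosts was -1.57, and 0 of the 7 hosts that rose on the TMM scale lay above wild type, so that each rise is a rise relative to the bulk of hosts.

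Other settings kept fewer of these calls. DESeq2's test called 2 of the members higher and 4 lower, all 6 in the same direction as edgeR, namely Rab3gap2, Rab2a, Rab11a, Snx5, Tbc1d14 and Vps50. With each library left out in turn, 5 of the 22 called hosts stayed past the threshold every time, and these were Rab3gap2, Rab11a, Snx5, Tbc1d14 and Rab2a.

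**Figure D1:**
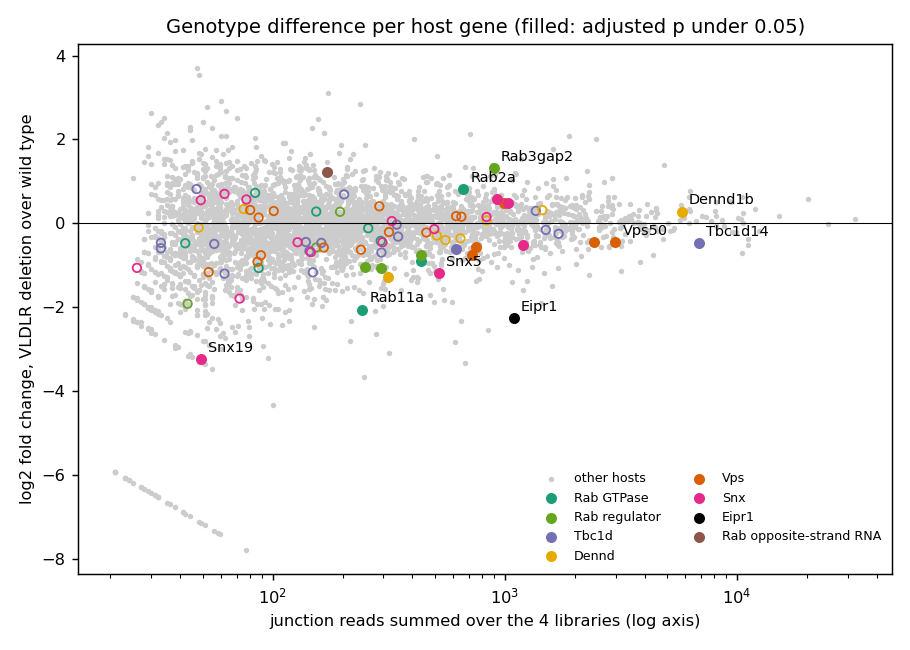
Each point is 1 tested host gene, with its junction reads summed over the 4 libraries on the x axis (log axis) and its log2 fold change of deletion over wild type on the y axis (TMM scale). Grey points are the other hosts, coloured points are the trafficking genes by family, and filled points are Eipr1 and the 22 called members, 15 below 0 and 7 above, of which 0 lies above wild type on the SRPBM scale. Eipr1 joined the members with its values known, and its test is not read.

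Eipr1 joined the members with its values known, so its rank among them is not read and its values are described alone. Its circles held 461 and 542 reads in P12 and P13 wild type and 46 and 44 reads in P12 and P13 deletion tissue. Scaled to library size, these were 739 and 762 CPM against 170 and 144, so both deletion libraries lay far below both wild-type libraries. The log2 fold change was -2.26. In all values below that carry one, the SE is the size of the fold change divided by the square root of the F statistic. Within days the deletion was 4.34-fold lower at P12 (95% exact interval 3.20 to 6.02) and 5.30-fold lower at P13 (3.90 to 7.39).

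A single Eipr1 circle, at chr12:28859252-28867153 in the coordinates of the tables, carried most of this, with 403 and 489 reads in wild-type tissue and 34 and 41 in deletion tissue (log2 fold change -2.42). Of the 7 Eipr1 circles 3 were tested, and those beside the lead circle were lower as well. A longer one ending at the same position had 21 and 34 reads against 5 and 0, and a shorter one had 22 and 11 against 5 and 0. Both passed the filter through wild type alone. With the lead circle left out, the log2 fold change of the host was -1.70. That value rests on 58 and 53 reads in P12 and P13 wild type against 12 and 3 in the deletion. At the splice positions of the lead circle, non-junction reads numbered 230 and 256 in wild-type tissue and 71 and 69 in the deletion. The junction ratio, in which 2 times the junction reads are divided by their sum with the non-junction reads, was 0.778 and 0.793 in wild-type tissue and 0.489 and 0.543 in the deletion.

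Of 5 subunits of the EARP and GARP tethers, with which Eipr1 works, 4 hosted circRNAs and 3 were tested. Vps50 fell, from 1678 and 1726 CPM in P12 and P13 wild type to 1191 and 1289 in the deletion, with no overlap between genotypes (log2 fold change -0.46 ± 0.12, edgeR's adjusted p = 0.00200). That call was lost without wild type P13 (adjusted p = 0.0581) and without deletion P12 (0.0517). Vps53, which both tethers share, had a log2 fold change of 0.16, and Vps54, found in GARP, had -0.22. Neither passed the test, and Vps52 was listed with 3 reads in wild type P13 alone.

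Among Rab GTPases, 9 of 21 hosts were tested, and 1 rose, 2 fell and 6 did not pass (median log2 fold change -0.42). Rab11a, the switch of the recycling endosome, had 103 and 117 reads in P12 and P13 wild type and 8 and 15 reads in the deletion. On the scaled level this was 165 and 164 CPM against 29.6 and 49.0, and the genotypes did not overlap. It fell by 2.06 on the log2 scale (SE 0.38, edgeR's adjusted p = 3.65e-06), being 5.58-fold lower at P12 (2.73 to 13.3) and 3.36-fold lower at P13 (1.96 to 6.19).

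Rab2a, which works between the endoplasmic reticulum and the Golgi, moved the other way. It had 181 and 195 reads in wild-type tissue and 136 and 150 in the deletion, which is 290 and 274 CPM against 503 and 490. Relative to the bulk of hosts it rose by 0.81 ± 0.19 (log2, edgeR's adjusted p = 3.72e-04), and on the SRPBM scale it lay below wild type at -0.71.

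Rab6b, a Golgi Rab that is abundant in neurons, had 257 and 271 CPM in P12 and P13 wild type and 174 and 114 in the deletion. It fell by 0.89 on the log2 scale (SE 0.26, edgeR's adjusted p = 0.00746), and the call was lost without wild type P12 (adjusted p = 0.0907), wild type P13 (0.144) or deletion P13 (0.130). Its close relative Rab6a had a log2 fold change of -1.07 and did not pass (adjusted p = 0.254). The early endosome switch Rab5a, at -0.42 (adjusted p = 0.402), and Rab28, at 0.73 (adjusted p = 0.416), did not pass either.

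Rab10os rose relative to the bulk of hosts, with 77.0 and 52.0 CPM in P12 and P13 wild type and 155 and 144 in deletion tissue (log2 fold change 1.23 ± 0.36, edgeR's adjusted p = 0.00800; -0.28 on the SRPBM scale). Without wild type P13 (adjusted p = 0.173) or deletion P12 (0.0530) it did not pass. Its lead circle was listed on the plus strand at chr12:3237285-3238112, and the Rab10 circle on the minus strand at chr12:3252612-3264749, without overlap in position. How the authors assigned strand is not stated.

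The regulators named after a Rab gave the smallest p among the 78 members counted. Rab3gap2, the non-catalytic subunit of the complex that switches off Rab3 and activates Rab18, had 200 and 232 reads in P12 and P13 wild type and 239 and 224 in the deletion. Its deletion counts were thus as high as the wild-type counts in much shallower libraries. Scaled, this was 321 and 326 CPM against 884 and 731, and Rab3gap2 rose by 1.31 ± 0.16 relative to the bulk of hosts (log2, edgeR's adjusted p = 1.53e-13; -0.21 on the SRPBM scale). The deletion was 2.76-fold higher at P12 (2.27 to 3.34) and 2.24-fold higher at P13 (1.86 to 2.71).

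Rab3gap1, the catalytic subunit of the same complex, went in the opposite direction. It had 127 and 116 reads in wild-type tissue and 20 and 30 in the deletion, or 204 and 163 CPM against 74.0 and 97.9, without overlap. It fell by 1.08 on the log2 scale (SE 0.31, edgeR's adjusted p = 0.00598), though not without wild type P12 (adjusted p = 0.182) or deletion P12 (0.0595), nor over circRNAs listed in all 4 libraries alone (0.304).

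A pair of proteins that act on Rab11 and Rab8 fell too. Rab11fip5, a Rab11 effector, had 191 and 125 CPM in P12 and P13 wild type and 77.7 and 71.8 in deletion tissue (log2 fold change -1.05 ± 0.33, edgeR's adjusted p = 0.0159). Rab3ip, also called Rabin8, the exchange factor that loads Rab8 at the base of the cilium, had 263 and 254 against 133 and 173 (-0.76 ± 0.26, adjusted p = 0.0277). Rab11fip5 did not pass without wild type P12 (adjusted p = 0.427) or deletion P13 (0.0507). Rab3ip did not pass without wild type P12 (0.242), wild type P13 (0.186) or deletion P12 (0.147). Of the 7 tested regulators 1 rose, 3 fell and 3 did not pass.

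None of the 18 tested Tbc1d genes rose by edgeR's test (before adjustment, 10 of the 78 members were higher and 18 lower at a p under 0.05), 2 fell, and 15 of the 18 had a log2 fold change below 0, with a median of -0.47. Tbc1d14 had 4066 and 3811 CPM in P12 and P13 wild type and 3033 and 2647 in the deletion. The difference was modest but stood outside the spread between the libraries of a genotype (log2 fold change -0.47 ± 0.10, edgeR's adjusted p = 1.20e-04), with a ratio of 0.746 at P12 (0.689 to 0.808) and 0.694 at P13 (0.641 to 0.751).

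Tbc1d30, a GTPase-activating protein for Rab8, had 335 and 384 CPM in wild-type tissue and 237 and 232 in the deletion (-0.62 ± 0.21, edgeR's adjusted p = 0.0332). This call was lost without any 1 of the 4 libraries, with adjusted p of 0.162 without wild type P12, 0.392 without wild type P13, 0.0739 without deletion P12 and 0.0872 without deletion P13. The abundant hosts Tbc1d8 (-0.25, adjusted p = 0.265), Tbc1d5 (-0.16, 0.568) and Tbc1d32 (0.30, 0.185) did not pass, nor did Tbc1d9 at -1.17 (0.0568).

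Of 9 tested Dennd genes, 1 rose, 1 fell and 7 did not pass (median -0.10). Dennd1b had 2802 and 2885 CPM in P12 and P13 wild type and 3470 and 3423 in the deletion, a rise relative to the bulk of hosts of 0.28 ± 0.10 (log2, edgeR's adjusted p = 0.0495; -1.24 on the SRPBM scale). It was lost without any 1 library (adjusted p of 0.164, 0.0999, 0.164 and 0.100 when P12 or P13 wild type, then P12 or P13 deletion, was left out) with the no-filter setting (0.248) and over circRNAs listed in all 4 libraries (0.18, adjusted p = 0.241). Dennd1a, its paralog, had a log2 fold change of 0.32 and did not pass (0.134).

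Dennd6a, an exchange factor for Rab14, was low in 1 library. It had 151 and 113 reads in P12 and P13 wild type, but 8 and 42 in the deletion, or 242, 159, 29.6 and 137 CPM. The deletion was 8.18-fold lower at P12 (4.05 to 19.3), whereas the ratio at P13 was 0.863 and its interval held 1 (0.591 to 1.24). Its log2 fold change of -1.27 ± 0.36 (edgeR's adjusted p = 0.0126) rested on P12: without deletion P12 the adjusted p was 0.272, without wild type P12 it was 0.197, and over circRNAs listed in all 4 libraries the log2 value was 0.21.

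Of 18 tested Vps genes, 1 rose, 4 fell and 13 did not pass (median -0.33). Apart from Vps50, the fallers were Vps45 and a pair of VPS13 lipid transfer genes. Vps45, which controls membrane fusion at early endosomes, had 226 and 352 reads in P12 and P13 wild type and 63 and 84 in the deletion, or 362 and 495 CPM against 233 and 274. It fell by 0.75 on the log2 scale (SE 0.20, edgeR's adjusted p = 0.00333), and not without wild type P13 (adjusted p = 0.376) or deletion P12 (0.0592).

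Vps13b had 1325 and 1433 CPM in wild-type tissue and 1051 and 986 in the deletion (-0.44 ± 0.12, edgeR's adjusted p = 0.00590), and lost its call without wild type P13 (0.166) or deletion P13 (0.0695). Vps13d, needed for mitochondrial shape and clearance, had 396 and 468 against 385 and 212. Its ratio was 0.971 at P12 and 0.453 at P13, so that its P12 libraries were close to each other and deletion P13 alone was low. Its call (-0.57 ± 0.20, edgeR's adjusted p = 0.0318) was lost without deletion P13 (0.698), wild type P12 (0.148) or wild type P13 (0.482). The other VPS13 genes did not pass, with Vps13c at -0.63 and Vps13a at 0.14.

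Vps41, a subunit of the HOPS tether that fuses late endosomes with lysosomes, was the Vps gene that rose. It had 470 and 458 CPM in P12 and P13 wild type and 740 and 578 in the deletion (0.49 ± 0.16 relative to the bulk of hosts, edgeR's adjusted p = 0.0198; -1.03 on the SRPBM scale). The call was lost without wild type P12 (0.151), wild type P13 (0.202) or deletion P12 (0.290), and over circRNAs listed in all 4 libraries (0.42, adjusted p = 0.0503). Over the 5 tested HOPS and CORVET genes the median was 0.32 and the others did not pass. Of 3 tested ESCRT genes and 1 tested retromer gene, Vps26a at -0.76, none passed by edgeR's test. Vps26a had 33 and 38 reads in P12 and P13 wild type against 9 and 9 in the deletion, and so passed the filter through wild type alone.

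Sorting nexins went both ways, with 2 of 16 tested genes higher, 3 lower and 11 not passing (median -0.29). Snx5, a SNX-BAR protein that forms tubules for retrieval from endosomes, had 191 and 244 reads in P12 and P13 wild type and 26 and 60 in the deletion. Scaled values of 306 and 343 CPM stood against 96.2 and 196, with the P12 gap the wider. Snx5 fell by 1.18 on the log2 scale (SE 0.25, edgeR's adjusted p = 5.65e-05), being 3.18-fold lower at P12 (2.11 to 5.001) and 1.75-fold lower at P13 (1.32 to 2.36). Another SNX-BAR gene, Snx1, had 29 and 35 reads in P12 and P13 wild type against 6 and 2 in the deletion (log2 fold change -1.80). It passed the filter on reads through wild type alone, so its test is not read here. Of 7 tested SNX-BAR genes Snx5 was the 1 that passed.

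Snx13 fell slightly (-0.51 ± 0.16, edgeR's adjusted p = 0.0171), from 648 and 718 CPM in P12 and P13 wild type to 414 and 552 in the deletion. It did not pass without wild type P12 (0.117), wild type P13 (0.311) or deletion P12 (0.282), and over circRNAs listed in all 4 libraries it stood at -0.23 (0.384). Snx19, which tethers endolysosomes to the endoplasmic reticulum, had 28 and 19 reads against 0 and 2. With 3 reads put in place of 0 the P12 difference was 4.05-fold, and its exact interval reached down to 3.08-fold. At P13 Snx19 was 4.09-fold lower with an interval that held 1 (0.987 to 36.2). It passed the filter on reads through wild type alone, so its test is not read here.

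Snx12 and Snx25 rose relative to the bulk of hosts. Snx12, a small PX-domain protein, had 411 and 430 CPM in P12 and P13 wild type and 644 and 617 in the deletion (0.58 ± 0.16, edgeR's adjusted p = 0.00544; -0.94 on the SRPBM scale). Snx25 had 510 and 457 against 647 and 711 (0.49 ± 0.16, adjusted p = 0.0182; -1.03 on the SRPBM scale). Snx12 was lost without wild type P12 (0.132) or wild type P13 (0.0823). Snx25 was lost without wild type P12 (0.0933), wild type P13 (0.299) or deletion P13 (0.102).

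**Figure D2:**
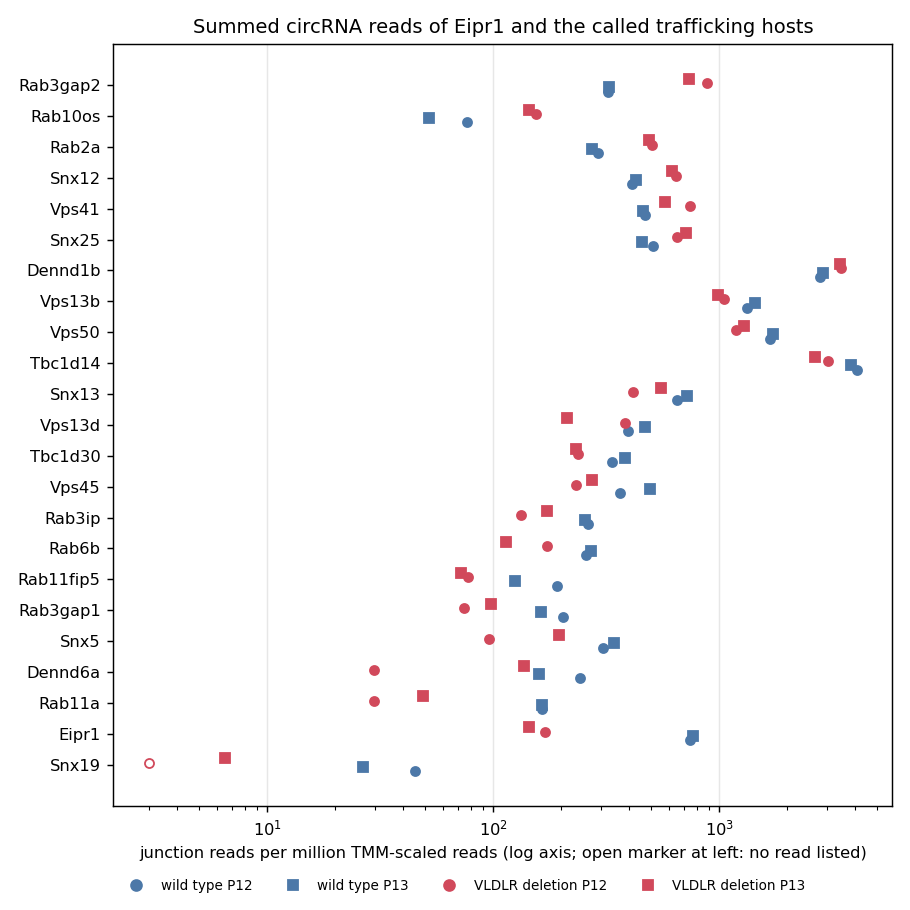
TMM-scaled junction reads in CPM (log axis) in each of the 4 libraries for Eipr1 and the 22 called hosts, blue for wild type, red for the deletion, circles for P12 and squares for P13, with an open marker where no read was listed. The 22 hosts were drawn because the genotype test called them, and Eipr1 because the rule names it. Eipr1 stands at 739 and 762 against 170 and 144, and Rab3gap2 at 321 and 326 against 884 and 731. On the SRPBM scale 0 of the hosts that rose lies above wild type.

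Single circRNAs were compared in the same way. Of 1058 member circRNAs outside Eipr1, 236 were tested, and by edgeR's test 4 rose and 11 fell. That is 6.36% of the tested members, against 8.62% of all 8785 tested circRNAs, a share below that background. The higher share was 1.69% against 5.03% and the lower share 4.66% against 3.59%. The median log2 fold change was -0.25, against -0.08 over all, and DESeq2 called 3 higher and 6 lower. Of the tested member circRNAs, 77 had under 10 reads in both deletion libraries and passed the filter through wild type alone, and 4 of these were called. Another 2 passed through the deletion alone, and 1 of these was called. Without them, 7 fell and 3 rose.

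A short Rab3gap2 circle spanning 379 bases (chr1:185266901-185267279) held nearly all reads of its host. It had 178 and 199 reads in P12 and P13 wild type and 231 and 219 in the deletion, and its share of host reads was 89.0% and 85.8% against 96.7% and 97.8%. It rose by 1.41 ± 0.17 relative to the bulk of circRNAs (log2, edgeR's adjusted p = 2.49e-05; -0.05 on the SRPBM scale). Without it, the remaining Rab3gap2 reads had a log2 fold change of -0.79 and did not pass (0.587).

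In Dennd1b a called circle held a larger share of host reads in the deletion libraries. Like those of Rab3gap2, Tbc1d14 and Vps45, this circle was picked by its own junction reads, so the shares give no separate support. The intervals of the shares cover counting error only. The circle at chr1:139053346-139062971 had 275 and 274 reads in P12 and P13 wild type and 262 and 269 in the deletion, and its share of host reads went from 15.7% (95% exact interval 14.1 to 17.5) and 13.3% (11.9 to 14.9) to 27.9% (25.1 to 30.9) and 25.6% (23.0 to 28.4). The shares did not overlap, and the circle rose by 1.10 ± 0.15 relative to the bulk (edgeR's adjusted p = 1.51e-04; -0.36 on the SRPBM scale). The host's most abundant circle, chr1:139040000-139062971, ends at the same position and had 529 and 638 reads against 265 and 328, with a log2 fold change of 0.17 that did not pass (0.533). Of 15 tested Dennd1b circles 1 rose and 9 were below 0.

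Tbc1d14 showed the reverse. Its lead circle, 742 bases at chr5:36571296-36572037, had 1594 and 1539 reads in P12 and P13 wild type and 384 and 409 in the deletion, and it fell by 0.83 on the log2 scale (SE 0.12, edgeR's adjusted p = 2.68e-04). Its share of Tbc1d14 reads was 62.9% (60.97 to 64.8) and 56.7% (54.9 to 58.6) in wild-type tissue and 46.8% (43.4 to 50.3) and 50.4% (46.9 to 53.9) in the deletion. The second circle, chr5:36519273-36525048, had 484 and 523 reads against 249 and 208 and a log2 fold change of 0.01. Without the lead circle the host stood at -0.06 (0.850), so the other circles together changed little. Singly they went both ways: of 11 tested Tbc1d14 circles 7 were below 0 and 4 above, and the lowest stood at -1.02. The lead circle was the 1 called.

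Vps45 had the same arrangement. Its circle at chr3:96041338-96042928 fell from 144 and 242 reads in P12 and P13 wild type to 26 and 22 in the deletion (-1.82 ± 0.27, edgeR's adjusted p = 3.09e-04). It made up 63.7% (57.1 to 70.0) and 68.8% (63.6 to 73.6) of Vps45 reads in wild-type tissue and 41.3% (29.0 to 54.4) and 26.2% (17.2 to 36.9) in the deletion. A longer circle ending at the same position, chr3:96019609-96042928, had 67 and 71 reads against 30 and 50 (0.34, not passing), and without the lead circle the host was at 0.29.

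In Rab6b, the circle at chr9:103160820-103163903 fell from 77 and 86 reads in P12 and P13 wild type to 10 and 6 in the deletion (-2.19 ± 0.40, edgeR's adjusted p = 0.00158), while a longer one with the same end had 65 and 74 against 29 and 25 (-0.21, not passing). The Rab11a circle at chr9:64725502-64728429 had 74 and 94 reads against 8 and 11 (-1.99 ± 0.37, adjusted p = 0.00187). A Rab2a circle at chr4:8577955-8582493 had 89 and 127 reads against 98 and 108 and rose relative to the bulk (1.10 ± 0.21, adjusted p = 0.00224; -0.37 on the SRPBM scale).

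The other circles that fell came from hosts already described. Those of Rab11fip5 (chr6:85347780-85348991), Rab3ip (chr10:116937397-116939481) and Snx5 (chr2:144254726-144259178) had adjusted p between 0.0218 and 0.0310 by edgeR's test. Snx5's circle was nearly lost at P12, with 82 and 94 reads in P12 and P13 wild type and 2 and 18 in the deletion. It was not called without wild type P12 (0.105) or wild type P13 (0.0901), Rab11fip5's not without wild type P12 (0.394), and Rab3ip's not without wild type P12 (0.151), wild type P13 (0.0943) or deletion P12 (0.0803). A Tbc1d30 circle (chr10:121288880-121296860) had 29 and 55 reads against 3 and 8 and passed the filter through wild type alone, so its test is not read here.

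A weakly covered circle of Tbc1d12, a Rab11-binding protein, was the last called higher. At chr19:38865616-38882774 it had 8 and 6 reads in P12 and P13 wild type and 12 and 19 in the deletion. It reached 10 reads in the deletion libraries alone, so that its test restates the filter and is not read here.

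Calls were sparse within hosts that had many circles. Vps50 had 14 tested circles, 12 of them below 0 and 0 called, while Vps13b had 17, 14 of them below 0 and 1 called. Dennd1a had 11 tested circles, 8 of them above 0 and 0 called. No member host had circles called in opposite directions by edgeR's test. With the most abundant circle of every host left out, 19 of the 22 called hosts could still be tested and 2 stayed called by edgeR's test, Rab6b (-1.66, adjusted p = 0.0131) and Tbc1d30 (-1.02, 0.0312). In both, the circle left out was not the one called lower, which stayed in the sum. Lost calls did not always mean a smaller difference, since Rab11a was at -2.49, Vps13d at -0.65 and Snx13 at -0.55 without the lead circle. Rab3gap1 was at -0.98, somewhat smaller than the -1.08 of its full sum. The Rab11a value rests on 29 and 23 reads in P12 and P13 wild type against 0 and 4 in the deletion. It passed the filter through wild type alone.

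**Figure D3:**
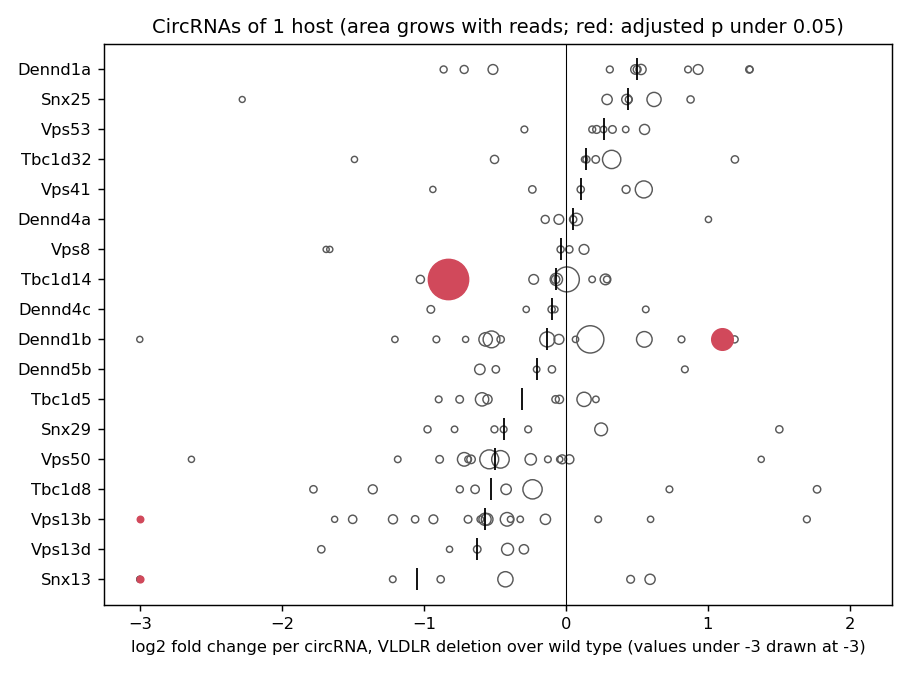
Log2 fold change of deletion over wild type (x axis, TMM scale) of every tested circRNA in the 18 hosts with at least 5 of them, 1 row per host, with the area of a point growing with its reads and a black tick at the median of the host. Red points were called: Tbc1d14, Vps13b and Dennd1b each show 1 among 11, 17 and 15 circles, and Vps50 has 12 of 14 below 0 with 0 called; values under -3 are drawn at the edge, and the Dennd1b circle that rose lies below wild type on the SRPBM scale.

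The junction ratio of the called circles moved with their reads. All 8 fallen circles that were listed in every library had both deletion ratios below both wild-type ratios. They were picked by a fall in the same junction reads that the ratio holds, so this count gives no separate support. The share among other circRNAs was not computed. Among the 8 are the Tbc1d30 circle, with 3 and 8 deletion reads, and the Snx5 circle, with 2 reads in deletion P12. Rab11a's ratio was 0.725 and 0.740 in P12 and P13 wild type and 0.457 and 0.458 in the deletion, and Rab6b's was 0.653 and 0.723 against 0.426 and 0.316. In Tbc1d14 the shift was small, from 0.926 and 0.906 to 0.893 and 0.881.

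Of the 4 circles that rose, 3 had both deletion ratios above both wild-type ratios, among them the Tbc1d12 circle whose test is not read. These circles were likewise picked by their junction reads. Dennd1b went from 0.339 and 0.303 to 0.551 and 0.529, with 1071 and 1262 non-junction reads in wild-type tissue and 427 and 479 in the deletion. The exception was Rab3gap2, at 0.832 and 0.860 in wild-type tissue and 0.857 and 0.836 in the deletion. The ratio holds the same junction reads as the test and is not independent of it. Over the 58 member circles with at least 20 junction reads in each library, the median ratio was 0.541 and 0.526 in the wild-type libraries and 0.540 and 0.530 in the deletion libraries, below the 0.624, 0.634, 0.629 and 0.627 of all 2193 such circRNAs.

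Both wild-type libraries and neither deletion library listed 129 member circRNAs, and both deletion libraries and neither wild-type library listed 8. The wild-type libraries were the deeper ones, and circles under 2 reads are not listed. The same counts over all circRNAs were not computed, so 129 and 8 are not read as a trait of the members. The most abundant of the 129 was a circle of Tbc1d16, which switches off Rab4 (chr11:119208771-119210740), with 34 and 13 reads against 0 and 0. With 3 reads put in place of each 0, it was 5.13-fold lower at P12 and 1.94-fold lower at P13. Such folds leave out counting error and are not lower bounds. It was followed by a Snx13 circle (chr12:35078900-35098313) with 19 and 28 reads, 2.86-fold and 4.19-fold lower in this way. A Vps13b circle (chr15:35645973-35674952) had 20 and 20 reads and was 3.02-fold and 2.99-fold lower.

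These 3 are among the 11 called lower, but they were picked for having no deletion reads and passed the filter through wild type alone, so their tests are not read here. Next came a Dennd1b circle (chr1:139060275-139102093) with 12 and 15 reads and a second Snx13 circle (chr12:35082869-35112504) with 10 and 16.

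On the deletion side, a Snx5 circle of 265 bases (chr2:144255340-144255604) had 5 and 12 reads against 0 and 0. With 3 reads put in place of each 0, this was 3.68-fold higher at P12 and 8.91-fold higher at P13 on the TMM scale, counting error left out. Snx5 as a host fell, so this circle went against the total of its gene. The others were low, with 9 and 2 reads for Tbc1d5 (chr17:50741476-50742136), 4 and 6 for Dennd1b (chr1:139040000-139054621), 7 and 3 for Vps8 (chr16:21506770-21518232), a CORVET subunit, and 3 and 5 for Tbc1d32 (chr10:56040139-56072601).

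Deletion and wild type were also set side by side within each day, where a host was called if its scaled ratio was at least 2 or at most 0.5 with a 95% exact interval that excluded 1. These calls compare single libraries, have no replicate check and carry no p-value, and the intervals cover counting error only. At P12, 5 of 72 members were higher (6.94%, against 7.41% of all hosts) and 16 were lower (22.2%, against 10.1%). At P13, 2 of 77 were higher (2.60%, against 6.67%) and 7 were lower (9.09%, against 8.92%). The median ratio of members was 0.834 at P12 and 0.854 at P13, against 0.979 and 0.984 over all hosts. With every library thinned to the shallowest, 9 members were lower at each day, and 2 were higher at P12 and 3 at P13. The difference between days was not tested.

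Beside Rab3gap2, the called members with the highest ratios at P12, among hosts with at least 20 reads over both libraries, were weakly covered Snx genes. Snx4, which returns receptors from early to recycling endosomes, was 2.998-fold higher (1.21 to 7.64), with 13 reads in the deletion and 10 in wild type, and Snx9, an endocytic partner of dynamin, was 2.50-fold higher (1.05 to 5.99), with 13 and 12. The lowest measured ratio was that of Dennd6a. Snx19 and Vps4b, the ATPase that disassembles ESCRT filaments, had 0 deletion reads and so no rank. With 3 reads put in place of 0, Vps4b at 0 reads against 24 was 3.47-fold lower, and its exact interval reached down to 2.61-fold.

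At P13, Rab10os was 2.76-fold higher (1.74 to 4.40). Snx1 had 2 reads in the deletion against 35 in wild type, 7.54-fold lower (1.94 to 64.7), and Rab6a had 3 against 45, 6.46-fold lower (2.07 to 32.5). Both intervals are wide because few deletion reads were counted.

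**Figure D4:**
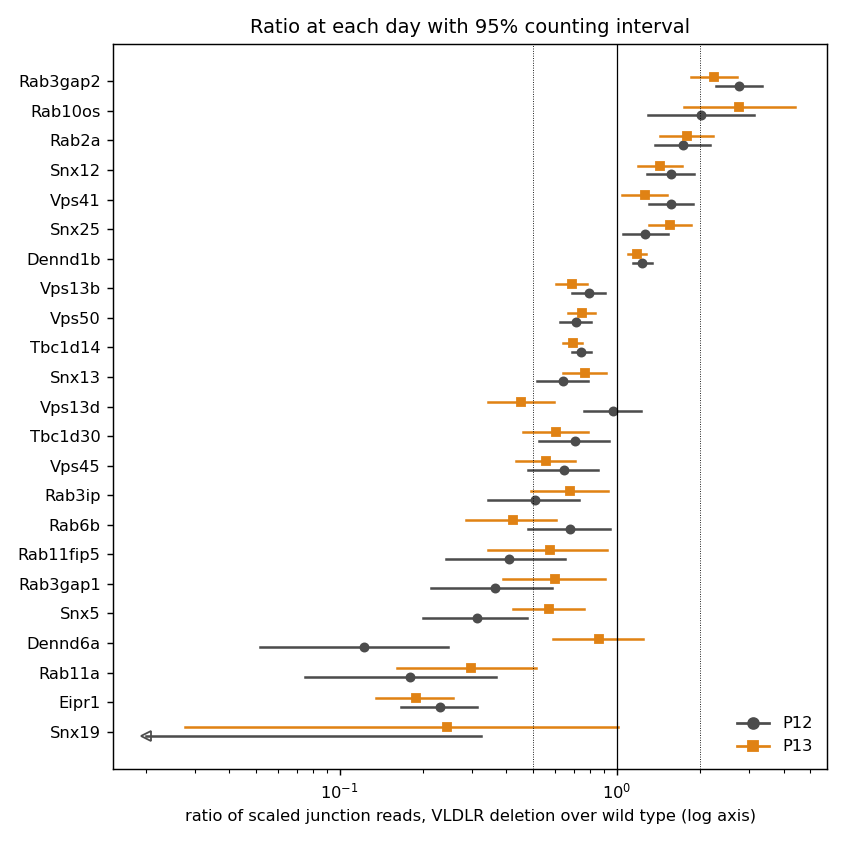
Ratio of deletion to wild type in TMM-scaled reads (x axis, log axis) at P12 (grey circles) and P13 (orange squares) for Eipr1 and the 22 called hosts, with 95% exact counting intervals and dotted lines at ratios of 0.5 and 2; the open arrow marks 0 reads of Snx19 in deletion P12. Rab3gap2 stands high on both days at 2.76 and 2.24, Eipr1 and Rab11a are low on both, and Dennd6a is low at P12 and near 1 at P13, whereas on the SRPBM scale 0 members are called higher on either day.

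Between P12 and P13, no trafficking gene changed by the additive test. Of the 78 tested hosts edgeR called 0 (0.103% of all hosts were called, 0.0257% higher and 0.077% lower), with 3 higher and 2 lower at an unadjusted p under 0.05, and DESeq2 called 0. Of the 236 tested circRNAs edgeR called 0 (0.0228% of all, 0.0114% higher and 0.0114% lower), with 4 higher and 1 lower at an unadjusted p under 0.05, and DESeq2 again called 0. The median log2 fold change of the hosts was -0.01. Tbc1d32 had the smallest p, with 384 and 500 reads in wild-type tissue and 181 and 295 in the deletion at P12 and P13, and a log2 fold change of 0.34 (adjusted p = 0.984).

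Single libraries of consecutive days differed in few members. In wild type, 3 of 79 hosts were higher at P13 (3.80%, against 3.65% of all) and 2 were lower (2.53%, against 3.7%). Tbc1d1, a Rab GTPase-activating protein that gates glucose transporter traffic in muscle, had 19 reads at P12 and 91 at P13, a ratio of 4.20 (2.54 to 7.29). Rab31 went from 4 to 17 reads (3.72, interval 1.21 to 15.2) and Tbc1d10b from 6 to 22 (3.21, interval 1.26 to 9.69). Tbc1d16 went from 88 to 37 reads, 2.71-fold lower (1.83 to 4.10), and Dennd3, an exchange factor for Rab12, from 23 to 11, 2.39-fold lower (1.12 to 5.42).

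In the deletion, 2 of 62 hosts were higher at P13 (3.23%, against 3.7%) and 0 were lower (against 3.66%). These were Dennd6a, from 8 to 42 reads (4.63, interval 2.15 to 11.4), and Snx5, from 26 to 60 (2.04, interval 1.27 to 3.36). Both had been at their lowest in deletion P12, so the same library entered their genotype ratio at P12 and this ratio.

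Other genes of the pathway, whose symbols fall outside the rule, were counted as well. Of 112 Rab exchange factors, GTPase-activating proteins, effectors, phosphoinositide enzymes, WASH and ESCRT subunits and sorting receptors, 84 hosted a circRNA and 61 were tested, and by edgeR's test 5 rose and 5 fell in the deletion. That is 16.4%, near the 14.1% of all tested hosts. With day 0 changed by edgeR's test (183 of all tested hosts had an unadjusted p under 0.05). Their median log2 fold change was 0.16, above the -0.05 of all hosts, whereas that of the members was below it. The scaled sum of this list was 17814 and 18607 CPM in P12 and P13 wild type and 20727 and 21171 in the deletion.

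Rims2, a Rab3 effector at the active zone of synapses, had 2206 and 2840 reads in wild-type tissue and 1356 and 1725 in the deletion and rose relative to the bulk (0.50, edgeR's adjusted p = 1.76e-05; -1.02 on the SRPBM scale). Uvrag, a subunit of an endosomal lipid kinase complex, had 125 and 125 against 100 and 129 (1.08, adjusted p = 2.76e-05; -0.45 on the SRPBM scale), and the sorting receptor Sorcs1 had 123 and 126 against 102 and 113 (1.00, adjusted p = 1.68e-04; -0.52 on the SRPBM scale). Washc2, a subunit of the WASH complex that drives actin on endosomes, fell, with 52 and 50 reads against 0 and 11 (-2.12, adjusted p = 0.00253). So did Stam2 of the ESCRT-0 complex, with 60 and 87 against 11 and 10 (-1.57, adjusted p = 0.00523), and Igf2r, the mannose 6-phosphate receptor that retromer retrieves, with 72 and 65 against 7 and 14 (-1.51, adjusted p = 0.00951). Washc2 and Igf2r did not pass without wild type P12 (0.110 and 0.138) or deletion P12 (0.193 and 0.108), and Stam2 not without wild type P13 (0.0959).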

How the data were processed

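Ocular circRNA libraries of 4 groups, 1 library each, were analysed. The deposited counts are back-spliced junction reads per circRNA, listed from 2 reads on, with the non-junction reads of those splice sites, in the CIRI layout per the file headers. From both the authors computed the deposited fraction called junction ratio. The deposited SRPBM signal is junction reads divided by 1 constant per library by the authors. The submitters' processing notes name BWA and DESeq2; the genome build was not given in the sources used here. Host identifiers were named from a RefSeq table of assembly GRCm38.p6 (99.93% of 7145 matched), and the class or host of 65 circRNAs differed between tables. The files held 0 further per-sample columns.

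Junction reads were summed per host. Rows reaching 10 reads in at least 2 libraries were scaled by TMM and fitted in edgeR 4.0.16 (R 4.3.3) with robust quasi-likelihood and additive terms for genotype and day, with Benjamini-Hochberg adjustment over all tested. Effective host sizes were 623503 and 711550 reads in P12 and P13 wild type and 270322 and 306415 in the deletion, and the values in scaled CPM are divided by these. Biological coefficients of variation were 0.157 (hosts) and 0.213 (circRNAs). The median prior degrees of freedom were infinite for hosts and 16.3 for circRNAs, beside 1 residual degree of freedom. Alternatives were DESeq2 1.42.0, other scalings, filters and sums, thinning to the shallowest library and leaving out each library. In the last, the lone library of a genotype is assumed to vary like the others. Those fits held the term under comparison alone, genotype without day or day without genotype. Pairs of libraries needed at least 20 reads together and used exact Clopper-Pearson intervals at 95% (scipy 1.17.1), which cover counting error only. Folds against 0 used a floor of 3 reads, leave out counting error and are not lower bounds.

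Members, gene lists and complexes were chosen with earlier results of these data known. Named genes are Eipr1, the 10 hosts with most reads, called members (up to 10 per direction by p, and up to 3 by ratio for pairs of libraries), up to 5 circRNAs listed in both libraries of 1 genotype alone, and up to 3 called pathway genes per direction. Called hosts past the first 10 and values that did not pass were added after their values were seen. Some marker genes are not reported here by name.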

Additional observations from a re-analysis of the deposited data

Results flagged for a closer look

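Tbc1d1 had 19 and 91 junction reads in P12 and P13 wild type and 17 and 12 in P12 and P13 deletion tissue, so that wild type P13 alone was high. The ratio of deletion to wild type was 2.06 at P12 (95% exact interval 1.01 to 4.19) and 0.306 at P13 (0.153 to 0.561), on opposite sides of 1. Each ratio compares 2 single libraries, and the difference between the days was not tested.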

How the results depend on the processing

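DESeq2 size factors, and sums over exonic circRNAs, left all counts of calls within 1.5 times. For hosts and genotype, the 7 higher became 2 with DESeq2's test, 4 with no filter, 0 on the SRPBM scale, 4 with no term for day, 0 without the most abundant circRNA of every host (an alternative chosen after seeing the data) and 2 to 6 with 1 library left out; the 15 lower became 4 with DESeq2's test, 64 on the SRPBM scale, 9 with no term for day, 2 without the most abundant circRNA and 6 to 16 with 1 library left out. For circRNAs and genotype, the 4 higher became 0 on the SRPBM scale and 5 to 11 with 1 library left out; the 11 lower became 6 with DESeq2's test, 20 with no filter, 142 on the SRPBM scale, 7 after thinning and 7 to 34 with 1 library left out. Day gave 0 calls under every alternative run. For pairs of libraries on the SRPBM scale, the calls became 0 higher and 58 lower at P12, 0 higher and 68 lower at P13, and 5 higher and 1 lower in wild type by day; after thinning, 2 higher and 9 lower at P12, 1 higher and 1 lower in wild type by day and 2 lower in the deletion by day; with at least 10 reads, 4 higher at P13 and 4 higher and 2 lower in the deletion by day. Single values that changed sign on the SRPBM scale were Rab3gap2 (-0.21), Rab2a (-0.71), Snx12 (-0.94), Rab10os (-0.28), Snx25 (-1.03), Vps41 (-1.03) and Dennd1b (-1.24), and the circRNAs of Rab3gap2 (-0.0544), Dennd1b (-0.36) and Rab2a (-0.37), a scale whose median over hosts is -1.57. Without the most abundant circRNA, Rab3gap2 was at -0.79 and Vps45 at 0.29, and Snx12, Rab11fip5 and Snx19 could not be fitted; over circRNAs listed in all 4 libraries, Dennd6a was at 0.21. The cause of these changes was not tested, and the genotype fits with 1 library left out also had no term for day. No paired analysis was possible because each group holds 1 library and the labels give no replicate numbers; the fit sets the genotypes beside each other within days through its term for day. The deletion libraries hold fewer reads than the wild-type libraries, which limits how far low members can be followed there.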
